A study of Homo sapiens with 6 samples.

Results

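LNCaP prostate cancer cells given bicalutamide were compared with LNCaP cells given ethanol, the vehicle, by RNA sequencing of 1 library each. LNCaP is an established human prostate cancer line that depends on androgen. Bicalutamide is a nonsteroidal antiandrogen, a drug that blocks the action of androgen in the cell. A gene entered the comparison when its counts averaged 20 or more across the series' 6 libraries, as 13885 of 21512 rows did. The cells had spent 3 days in phenol red-free medium with 2.5% charcoal/dextran treated serum, which holds little steroid hormone, before 24 h of 1 µM bicalutamide or of ethanol.

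The other 4 libraries came from LNCaP given 10 nM dihydrotestosterone (DHT, a natural androgen) and from a line named BicR given ethanol, DHT or bicalutamide under the same conditions. The labels call both lines prostate cancer and do not say how BicR was made. Each line and treatment had 1 library, so no difference below has a replicate check and no test was made between treatments. How far separate cultures of the same treatment differ is not known from these libraries. Total counts ran from 42162723 to 55917016 per library.

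Androgens switch on genes such as those of the kallikrein proteases in prostate luminal cells. In hormone-poor medium little androgen is present, so an antiandrogen acts against a low baseline. Prostate luminal cells also secrete large amounts of protein, which fold in the endoplasmic reticulum (ER) with the help of chaperones. When unfolded protein builds up there, the sensors of the unfolded protein response raise the production of these chaperones.

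Levels are given as CPM, the count as a share of the scaled library size on a common scale. Differences are log2(CPM + 1) with bicalutamide minus log2(CPM + 1) with ethanol, a scale that understates the change of weakly expressed genes. Ratios are of scaled counts and carry exact 95% intervals that cover counting error only. At least 2-fold higher with bicalutamide were 150 genes, 1.08% of those compared, and at least 2-fold lower were 211 genes, 1.52%. The interval lay wholly past 2-fold for 134 of the 150 and 174 of the 211. The median over all genes was 0.01, and 85.5% of genes lay within 1.5-fold. Of the genes past 2-fold, 41.6% were higher. With total counts in place of scaled library sizes the median over all genes moved from 0.01 to 0.15, and 64.5% of the genes past 2-fold were higher.

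Mitotic genes were the leading group on the higher side, and ER folding genes the leading group on the lower side. Ribosomal protein and respiratory chain genes were lower too, and a few small nucleolar RNAs (snoRNAs) and the nuclear RNA MALAT1 were higher. Androgen-induced genes had a median near that of all genes. On the log2(CPM + 1) scale the same drug in BicR gave 0 genes past 2-fold, with 99.8% of genes within 1.5-fold. Differences there ran from -0.70 to 0.93, and weakly counted genes are drawn toward 0 on that scale. By ratio of scaled counts the heat shock gene HSPA6 stood at 0.473 (0.294 to 0.743) in BicR. The snoRNA SNORD2 went from 16 counts with ethanol to 73 with bicalutamide in BicR. In BicR the 150 genes higher in LNCaP had a median difference of -0.12, and the 211 lower genes had one of 0.04.

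**Figure D1:**
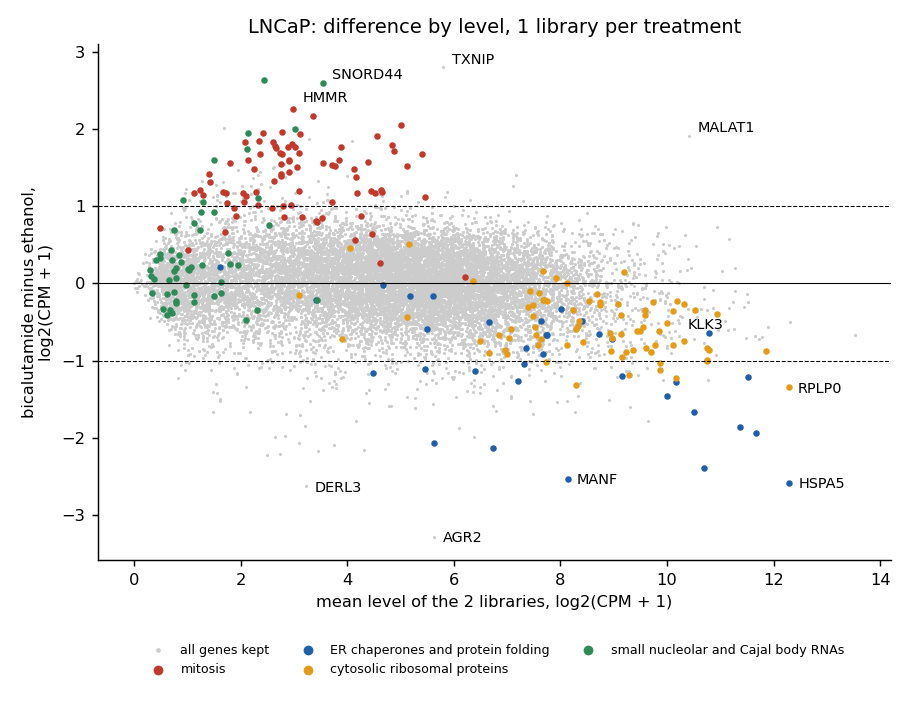
Difference between LNCaP with bicalutamide and with ethanol, on the log2(CPM + 1) scale, against the mean level of the 2 libraries. Each point is a gene. Dashed lines mark 2-fold, past which lie 150 genes above and 211 below. The mitosis genes (red) lie above 0, the ER chaperones (blue) lie below 0 with 1 exception.

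The androgen targets came close to the level of all genes. Of 64 androgen-induced genes compared, 0 were past 2-fold, against 1.08% higher and 1.52% lower among all genes. At those shares a list of this size holds few past 2-fold. The median difference was 0.03, and the range was -0.74 to 0.82. KLK3 encodes prostate-specific antigen and stood at 1402 CPM with ethanol, 979 with bicalutamide and 5257 with DHT. Its ratio of bicalutamide to ethanol was 0.698 (0.690 to 0.706). KLK2, the neighbouring kallikrein protease, had 121 CPM with ethanol, 88.2 with bicalutamide and 636 with DHT. Both kallikreins were thus lower with the antagonist and higher with the agonist than with vehicle. TMPRSS2, a membrane protease, had 99.8, 92.9 and 494 CPM in the same order.

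Other androgen-induced genes lay slightly above vehicle. The cochaperone FKBP5 had 43.0 CPM with ethanol and 56.6 with bicalutamide, and the kinase CAMKK2 had 94.6 and 118. NDRG1, a stress-responsive gene on the same list, was its lowest member, at 196 CPM with ethanol and 117 with bicalutamide. With DHT it had 181 CPM, so it was not higher with androgen in these LNCaP libraries. The highest was NCAPD3 at 0.82, a condensin subunit that also serves mitosis. The set of androgen-induced genes had a median difference of 0.63 with DHT against the same ethanol library.

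Among 38 androgen-repressed genes the median difference was 0.22. At least 2-fold higher was 1 gene, C1QTNF3 at 1.07, and at least 2-fold lower were 3, the glucose carrier SLC5A1 at -1.56, the matrix protein TNC and angiotensinogen (AGT). Among 26 pioneer factors and coregulators of the androgen response, 0 were past 2-fold, and the median of 0.27 fell to 0.14 after the correction for gene length described further on. They ran from the histone deacetylase HDAC3 at -0.42 to POU2F1 at 0.69, with the coactivator NCOA2 at 0.56 and the homeobox factor HOXB13 at 0.50. Of 20 steroid metabolism genes 1 was past 2-fold, HSD17B3, which makes testosterone from androstenedione, at -1.23. Over all genes 1.08% were at least 2-fold higher and 1.52% lower, so lists this short hold few past 2-fold at those shares.

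Genes of chromosome segregation were the most numerous group among those higher with bicalutamide. Of 81 mitosis genes, 65 were at least 2-fold higher and 0 lower, against 1.08% higher among all genes. The lists and their members were chosen with earlier results of these data known, so this contrast is descriptive only. The median was 1.39, and the members ran from 0.09 (BUB3) to 2.26 (HMMR). The median was 0.88 with a pseudocount of 5 CPM and 0.86 on the authors' RPKM. With ethanol the whole list took 0.0454% of counts, against 0.131% with bicalutamide, 0.130% with DHT and 0.192% to 0.217% in the BicR libraries.

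HMMR encodes a spindle-associated receptor for hyaluronan. It had 87 counts (1.74 CPM) with ethanol, 632 (12.1 CPM) with bicalutamide and 548 (10.1 CPM) with DHT. The ratio of bicalutamide to ethanol was 6.96 (5.56 to 8.81) in LNCaP and 0.888 (0.795 to 0.992) in BicR, where the ethanol library had 13.5 CPM. The LNCaP ethanol library was thus the low one.

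HJURP, the chaperone that loads the centromeric histone, showed the same order with 2.76, 15.9 and 14.0 CPM under ethanol, bicalutamide and DHT. The kinetochore protein CENPF had 11.6, 51.2 and 31.0 CPM. Topoisomerase TOP2A, which untangles chromosomes, had 8.90, 36.3 and 33.9 CPM, and the proliferation marker MKI67 12.7, 44.0 and 27.5. CASC5 (a kinetochore scaffold), DLGAP5 (a spindle protein), DEPDC1, CDCA2, PBK and CEP55 (an abscission protein) had differences from 1.84 to 1.96. ARHGAP11A and IQGAP3, which act on small GTPases and were on no list, had 1.87 and 1.85.

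The S phase machinery differed less. Of 50 DNA replication genes 1 was past 2-fold, RRM2, the inducible subunit of ribonucleotide reductase, with 2.52 CPM under ethanol, 6.36 under bicalutamide and 11.3 under DHT. The list's median was 0.34, and CDC7, TYMS, GINS1, ORC6L and RFC3 followed RRM2 with 0.81 to 0.87. At 2.0% the share of this list at least 2-fold higher was near the 1.08% among all genes. Homologous recombination and Fanconi genes had a median of 0.61, with 7 of 38 at least 2-fold higher: GEN1 at 1.40, BRCA2 at 1.38, BRCA1 at 1.17, RAD51AP1, FANCI, FANCM and XRCC2. Among 31 regulators of G1 and S phase the median was 0.12, with E2F7 at 1.15 and the cyclin-dependent kinase inhibitor CDKN1A at -1.13. Cyclin D1 (CCND1) stood at 1.55 times and MYC at 1.16 times their ethanol level, and replication-dependent histone genes had a median of -0.03.

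Many mitotic promoters carry the cell cycle homology region, which represses them outside G2 and mitosis. In RefSeq promoters (assembly GRCh38.p14, 250 bases before to 50 after the start), the letters TTTGAA on either strand were found for 48 of 67 mitosis genes with a promoter in the table, 71.6%, and for 1456 of 10692 promoters of all genes compared, 13.6%. Of the 113 genes at least 2-fold higher with a promoter, 53.1% held the letters, and of the 61 among them outside the mitosis list 32.8% did. Of the 164 lower ones 12.8% held them. Mitosis genes with the letters had a median difference of 1.45 and those without them 1.14, while for DHT against the same ethanol library the order was the other way, 1.33 and 1.45. The stretches below, 5′ to 3′ on the gene's strand, are from 4 of the 6 most changed mitosis genes, with TTTGAA or its reverse complement in capitals. A match in letters is not a tested site.
HMMR, chr5:163460592-163460627: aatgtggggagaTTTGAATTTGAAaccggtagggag
HJURP, chr2:233854629-233854658, minus strand: gacgcaaatttgTTTGAAaggcccaatcag
DLGAP5, chr14:55191677-55191735, minus strand: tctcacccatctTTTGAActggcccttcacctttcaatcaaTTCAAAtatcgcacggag
DEPDC1, chr1:68497092-68497121, minus strand: ccctctatgctaTTCAAAtcggcggcgggg
HMMR and DLGAP5 held the letters at 2 places each, and in HMMR they lay side by side.

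The ER folding apparatus was the leading group on the lower side. Past 2-fold were 17 of 34 ER chaperones and folding enzymes, each of them lower, against 1.52% lower among all genes, and 33 were below 0. The median was -0.98. Like the other lists, this one was chosen with earlier results of these data known. HSPA5 encodes BiP, the main ER chaperone, which also restrains the stress sensors, and took 0.790% of all counts with ethanol against 0.147% with bicalutamide. Its levels were 8595 CPM with ethanol, 1435 with bicalutamide and 1347 with DHT, and 1245, 1274 and 1645 in BicR with ethanol, bicalutamide and DHT. The ethanol library of LNCaP stood alone, and the other 5 values lay within 1245 to 1645 CPM.

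The chaperones named next were also highest in LNCaP with ethanol among the LNCaP libraries. HSP90B1, the ER form of HSP90, had 5191 CPM with ethanol, 1353 with bicalutamide and 1275 with DHT. The disulfide isomerase PDIA4 had 2800, 531 and 771 CPM, and the secreted stress factor MANF 479, 82.0 and 172, so that the DHT values of both lay between the others. The abundant chaperone calnexin (CANX) differed less, with 2156, 1378 and 1220 CPM. CRELD2 and SDF2L1, which assist folding of secreted proteins, stood at 0.223 and 0.229 times their ethanol level. The 1 member above 0 was FKBP7, at 0.22.

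The neighbouring steps of the secretory pathway were lower to a smaller degree. Components of ER-associated degradation, which returns misfolded protein to the cytosol, had a median of -0.39 with 5 of 27 at least 2-fold lower: DERL3, HERPUD1, SELS, OS9 and EDEM2. DERL3, a degradation channel subunit, had 15.1 CPM with ethanol, 1.59 with bicalutamide and 2.47 with DHT. The translocon and signal peptidase, which bring new chains into the ER, had a median of -0.52 with 3 of 24 lower (SSR2, SSR4 and SEC11C). The oligosaccharyltransferase and N-glycan enzymes had -0.59 with 5 of 32 lower, ALG12, GMPPA, GMPPB, STT3A and RPN1. The COPII and COPI coats and cargo receptors had -0.37 with 4 of 37 lower, TMED9, LMAN2, SEC13 and TMED3. Of the 172 genes on the 6 ER lists, 37 were at least 2-fold lower, 0 higher and 149 below 0.

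The stress-signalling factors themselves were less uniform. Of 19 sensors and factors of the unfolded protein response, 3 were at least 2-fold lower: DDIT3, the death-promoting factor CHOP, with 256 CPM under ethanol, 88.4 under bicalutamide and 133 under DHT, and WFS1 and PPP1R15A at -1.02 and -1.01. XBP1, whose message is activated by splicing that total counts do not show, had 780 CPM with ethanol and 769 with bicalutamide. ATF4 had 1296 and 739 CPM, and its amino acid response genes had a median of -0.34 with 4 of 43 at least 2-fold lower, the transporter subunit SLC3A2 at -1.79, ATF3 at -1.66, FGF21 at -1.36 and TRIB3 at -1.03. Among all genes 1.52% were at least 2-fold lower. Cytosolic heat shock genes had a median of 0.13. Their only member past 2-fold was HSPA6, an inducible HSP70 with a near-identical pseudogene, with 412 counts under ethanol and 51 under bicalutamide.

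The ER stress element is the promoter sequence through which the factors ATF6 and XBP1 act on chaperone genes. It was searched as CCAAT, then 9 bases of any kind, then CCACG, on either strand, and so contains a CCAAT box by construction. It was found in 18 of 10692 promoters, 0.168%, and in 7 of 31 ER chaperone promoters, 22.6%. It was found in 7 of 164 promoters of genes at least 2-fold lower, 4.27%, and in 0 of 113 of those higher. Outside the ER lists it was found in 1 of 131 lower genes, 0.763%. Those 7 lower genes were HSPA5, CRELD2, HSP90B1, CALR, FICD, ALG12 and PDIA6. Of the 18 genes with the letters, 9 were on the ER lists, so their values partly repeat those of the lists. The 18 had a median difference of -0.62, and 16 lay below 0, against 6740 of all 13885 genes compared. The exceptions near or above 0 included XBP1 at -0.02, EIF2A at 0.06 and ZNF17 at 0.44. The stretches below show the element in 5 of the 7, with its 2 ends in capitals on whichever strand they lie.
HSPA5, chr9:125241386-125241414, minus strand: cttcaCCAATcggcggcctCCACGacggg
HSP90B1, chr12:103930211-103930344: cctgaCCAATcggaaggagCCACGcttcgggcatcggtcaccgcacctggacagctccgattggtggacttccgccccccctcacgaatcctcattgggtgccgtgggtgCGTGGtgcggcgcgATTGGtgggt
CALR, chr19:12938379-12938407: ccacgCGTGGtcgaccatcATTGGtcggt
CRELD2, chr22:49918549-49918577: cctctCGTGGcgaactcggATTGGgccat
FICD, chr12:108515118-108515146: aacaaCCAATgggagtggcCCACGgcgcg
HSP90B1 held 2 copies, in opposite orientations. CALR, the calcium-binding chaperone calreticulin, had 4147 CPM with ethanol and 1140 with bicalutamide, and FICD, which modifies BiP, had 57.4 and 18.0.

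**Figure D2:**
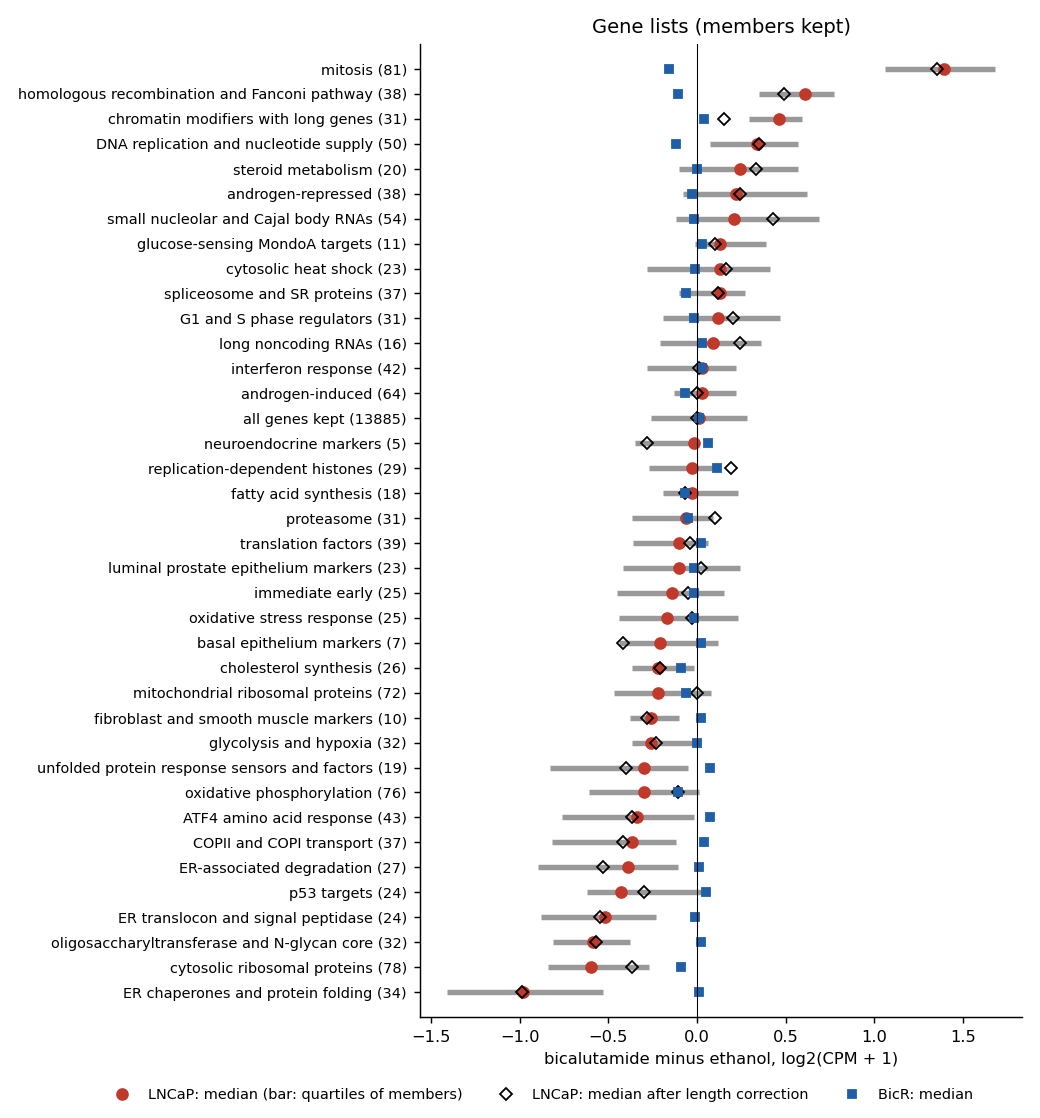
Median difference of each gene list (red circle, with a bar over the quartiles of its members), the same after correction for gene length (open diamond) and the median in BicR (blue square), on the log2(CPM + 1) scale. The number of members compared follows each name. Mitosis (1.39) and ER chaperones (-0.98) lie at the ends, and the BicR medians of these lists are -0.16 and 0.01.

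Outside the ER lists the lowest gene was AGR2, at 88.5 CPM with ethanol, 8.20 with bicalutamide and 12.5 with DHT, a ratio of 0.0927 (0.0837 to 0.102). It encodes an ER disulfide isomerase that helps to fold mucins. HSD17B8, a steroid and fatty acid dehydrogenase, had 132, 32.4 and 73.8 CPM, so its DHT value lay between the other 2. The chemokine receptor CCR2, the receptor GPR1, FIBIN, C1orf158, the glycosyltransferase GCNT3 and PIRT had 9.04 to 31.4 CPM with ethanol and 1.36 to 6.23 with bicalutamide. The p53 targets had a median of -0.43, with GDF15, a secreted stress cytokine, at 2450 and 1028 CPM and CDKN1A at 852 and 388 CPM as the 2 of 24 past 2-fold. P4HA2, a collagen prolyl hydroxylase, was the 1 of 32 glycolysis and hypoxia genes past 2-fold, with 96.5 and 34.1 CPM.

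TXNIP, which binds thioredoxin and limits glucose uptake, had the largest difference above 0 on the log2(CPM + 1) scale, 2.80. It had 12.9 CPM with ethanol, 95.8 with bicalutamide and 261 with DHT, a ratio of 7.43 (6.84 to 8.07) for bicalutamide against ethanol. In BicR it had 922 CPM with ethanol and 1018 with bicalutamide, so the LNCaP ethanol value was the lowest of the series. TXNIP is read out by the glucose-sensing factor MondoA, and of 11 genes on that list it was the 1 past 2-fold. Its relative ARRDC4 had 4.86 and 7.34 CPM, and the list's median was 0.13. Among all genes 1.08% were at least 2-fold higher.

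**Figure D3:**
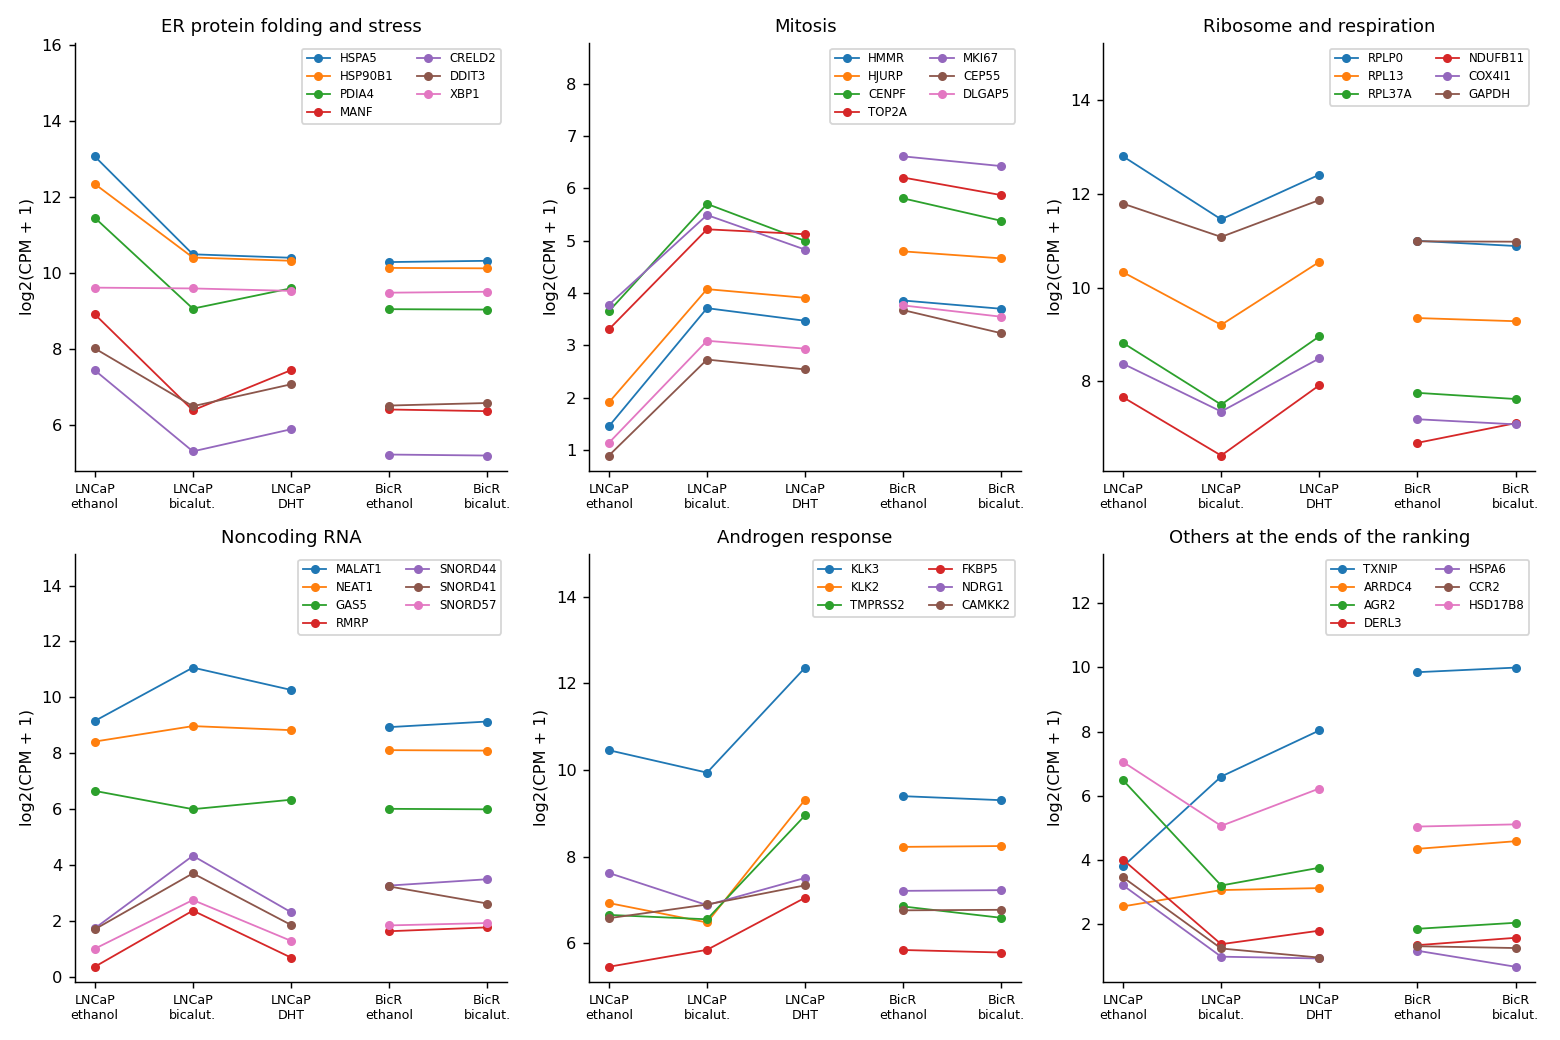
Levels on the log2(CPM + 1) scale in 5 libraries for 6 groups of genes, with lines joining libraries of the same line. In the ER and mitosis panels the LNCaP ethanol library stands apart from the others, with HSPA5 at 8595 CPM and HMMR at 1.74. The exception is XBP1 in the ER panel, which is nearly level. In the ribosome panel LNCaP with bicalutamide lies below LNCaP with ethanol and with DHT.

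DHT gave values on the same side of ethanol as bicalutamide for the 6 most changed mitosis genes and the 6 most changed ER chaperones. Over the 150 higher genes the median difference of DHT from ethanol was 1.16, and over the 211 lower genes it was -0.77. Both comparisons use the same ethanol library, so these values are not independent of each other. The list medians for DHT against ethanol were 1.43 for mitosis and -1.03 for ER chaperones, and for bicalutamide against DHT -0.09 and -0.04. How much of either pattern came from that ethanol library was not tested.

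The genes of the protein synthesis and respiratory machinery gave another order. Among 78 cytosolic ribosomal protein genes, 8 were past 2-fold with bicalutamide, each of them lower, against 1.52% lower among all genes. Of the 78, 71 lay below 0, and the median was -0.60. The list took 5.84% of counts with ethanol, 6.43% with DHT and 3.98% with bicalutamide, against 3.87% to 4.11% in BicR. The median of DHT against ethanol was 0.17, so here the bicalutamide library differed from both other LNCaP libraries. Ribosomal protein genes have many pseudogenes, and how the counts were shared among them is not given in the sources used here.

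RPLP0, a protein of the ribosome's stalk, had 7155 CPM with ethanol, 5453 with DHT and 2812 with bicalutamide, and in BicR 2045 with ethanol and 1894 with bicalutamide. The ratio of bicalutamide to ethanol in LNCaP was 0.393 (0.391 to 0.395). RPL13, of the large subunit, had 1284, 1496 and 588 CPM under ethanol, DHT and bicalutamide, and RPL37A 449, 496 and 180. Not every member was lower, since RPS27A, a fusion with ubiquitin, and RPS21 stood at 0.51 and 0.47. Oxidative phosphorylation genes had a median of -0.30 with 7 of 76 at least 2-fold lower, led by NDUFB11 of complex I with 200 CPM under ethanol, 239 under DHT and 83.8 under bicalutamide. COX4I1 of complex IV had 330, 357 and 162 CPM, and the glycolytic enzyme GAPDH 3549, 3744 and 2167. Mitochondrial ribosomal proteins had a median of -0.22 with 0 of 72 past 2-fold. At the share of 1.52% lower among all genes, a list of that size holds few past 2-fold.

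These genes are short, and gene length went with the difference over most of the table. A relative length was taken from counts divided by RPKM and by the total count. It overstated the annotated length by a median of 1.49 times over 802 genes with 1 transcript, so it serves for order only. Genes of 1 to 2 kb on this scale, 1397 of them, had a median difference of -0.25, those of 2 to 4 kb -0.09, those of 4 to 8 kb 0.06, and the 2399 over 8 kb 0.24. At least 2-fold lower were 68 genes of 1 to 2 kb and 8 over 8 kb, and at least 2-fold higher were 3 and 37. The 60 genes under 0.5 kb, 51 of them on the small nucleolar RNA list, went the other way, with a median of 0.15. Without the small nucleolar RNAs the median of this class was -0.19, over 9 genes.

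The same classes had medians of 0.13, 0.07, -0.01 and -0.14 for DHT against the same ethanol library, and of -0.02, -0.01, 0.02 and 0.03 in BicR. For bicalutamide against DHT they were -0.37, -0.15, 0.09 and 0.37. Apart from those under 0.5 kb, short genes were thus lower, and long ones higher, with bicalutamide than in either other LNCaP library. With the leading lists left out the class medians of bicalutamide against ethanol were -0.25, -0.09, 0.07 and 0.24.

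**Figure D4:**
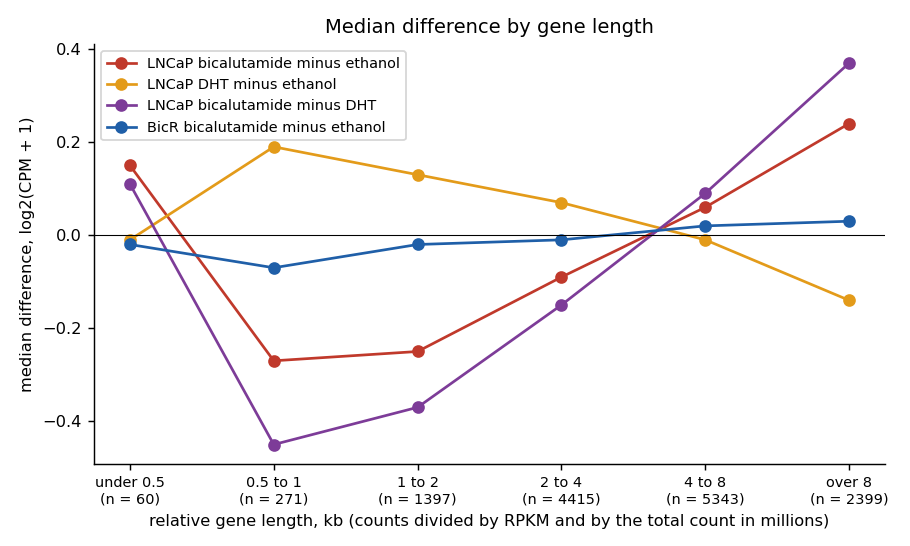
Median difference of genes in 6 classes of relative length (number of genes in brackets), on the log2(CPM + 1) scale, for 3 comparisons in LNCaP and 1 in BicR. From 0.5 kb upward the bicalutamide minus ethanol line climbs from -0.27 to 0.24, the DHT minus ethanol line descends from 0.19 to -0.14, and the BicR line stays between -0.07 and 0.03.

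Each gene's difference was then set against the median of the 400 genes nearest to it in length. The ribosomal protein median moved from -0.60 to -0.37, that of oxidative phosphorylation from -0.30 to -0.11 and that of mitochondrial ribosomal proteins from -0.22 to 0.00. At the other end, 31 chromatin modifiers with long genes had a median of 0.46, of which 30 lay above 0, and after correction it was 0.15. They include TET2, which oxidises methylated DNA, with 33.1 CPM under ethanol, 56.1 under bicalutamide and 22.7 under DHT, and the methyltransferases SETD2, NSD1 and MLL3 at 0.64 to 0.66. Mitosis and ER chaperones moved little, from 1.39 to 1.35 and from -0.98 to -0.99.

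Several nuclear RNAs were higher with bicalutamide than in any other library. MALAT1, a long noncoding RNA of nuclear speckles, had 569 CPM with ethanol, 1231 with DHT and 2142 with bicalutamide, and 488, 730 and 561 in BicR with ethanol, DHT and bicalutamide. NEAT1, which builds paraspeckles, had 341, 453 and 501 CPM in LNCaP. RMRP, the RNA of an endonuclease that processes ribosomal RNA, had 14 counts with ethanol, 33 with DHT and 217 with bicalutamide, a ratio of 14.9 (8.66 to 27.6) for bicalutamide against ethanol. Of 16 long noncoding RNAs on the list, MALAT1 was the 1 past 2-fold, and the median was 0.09. Among all genes 1.08% were at least 2-fold higher and 1.52% lower.

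snoRNAs guide the chemical modification of ribosomal and spliceosomal RNA and are mostly cut out of the introns of other genes. Small Cajal body RNAs (scaRNAs) do the same for spliceosomal RNA. Of 387 such RNAs in the table, 54 passed the count filter, 9 were at least 2-fold higher and 0 lower on the log2(CPM + 1) scale, and the median was 0.21. By the ratio of scaled counts, with no pseudocount, 18 were at least 2-fold higher and 3 lower, against 2.67% and 2.82% of all genes with counts in both libraries. Passing the filter can depend on the library where an RNA is high, and 10 of the 54 had fewer than 20 counts with ethanol. They took 0.0157% of counts with bicalutamide, against 0.00774% with ethanol and 0.00846% with DHT. The 9 were SNORD116-29, SNORD44, SNORD41, SNORD55, SNORD57, SNORD79, SCARNA9, SNORD42A and SCARNA17. The mature sequences of 3 of the 5 highest, from GENCODE release 29 (GRCh38), have in capitals the C box (TGATGA) near the 5′ end and the D box (CTGA) near the 3′ end, which define the C/D class of methylation guides.
SNORD116-29, chr15:25106521-25106603: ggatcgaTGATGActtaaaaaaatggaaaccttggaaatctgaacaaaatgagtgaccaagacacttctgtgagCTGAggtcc
SNORD41, chr19:12706449-12706518, minus strand: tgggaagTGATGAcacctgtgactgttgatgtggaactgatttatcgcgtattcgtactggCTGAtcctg
SNORD57, chr20:2656939-2657010: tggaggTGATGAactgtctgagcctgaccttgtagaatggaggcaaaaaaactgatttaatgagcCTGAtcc

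SNORD116-29 belongs to a cluster of near-identical copies in the imprinted Prader-Willi region, so its own count is uncertain. It had 25 counts with ethanol, 26 with DHT and 434 with bicalutamide, and 57 and 53 in BicR with ethanol and bicalutamide. SNORD116-21, another copy that passed the filter, had 30 counts with ethanol, 19 with DHT and 24 with bicalutamide in LNCaP. In LNCaP under ethanol, DHT and bicalutamide, SNORD44 had 2.32, 3.96 and 19.1 CPM. In the same order SNORD41 had 112, 142 and 626 counts and SNORD57 had 50, 78 and 298. The LNCaP bicalutamide library was the highest of the 6 for SNORD116-29, SNORD44, SNORD41 and SNORD57. The 3 at least 2-fold lower by ratio were SNORA6 at 0.429 (0.227 to 0.778), SNORD35B at 0.464 (0.233 to 0.885) and SNORA8 at 0.490 (0.279 to 0.838). Their intervals all reach above 0.5, on 31 to 43 counts with ethanol and 15 to 22 with bicalutamide.

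Small RNAs were compared with the genes that hold them by ratio, since the log2(CPM + 1) scale draws weakly counted RNAs toward 0 and abundant hosts hardly at all. A host among the genes compared was known for 46, of which 40 were placed by the annotation and 6 by their established hosts GAS5 and SNHG1. The 46 had 32 distinct hosts, so small RNAs of the same host are not independent of each other. The ratio of the small RNA was above that of its host in 33 of the 46 and below it in 13. The 95% interval lay wholly above that of the host in 25 and wholly below it in 4. SNORD44 stood at 8.24 times its ethanol level and its host GAS5 at 0.632, and SNORD57 at 5.71 and its host NOP56 at 0.957. For the 16 in ribosomal protein genes the median ratio was 1.07, against 0.649 for their hosts, and 11 of 16 lay above the host. SNORA6, at 0.429, lay below its host RPSA at 0.576. On the log2(CPM + 1) scale 37 of the 46 lay above the host. Reads of a snoRNA and of the host's unspliced intron may overlap, and strand use in counting is not given in the sources used here.

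**Figure D5:**
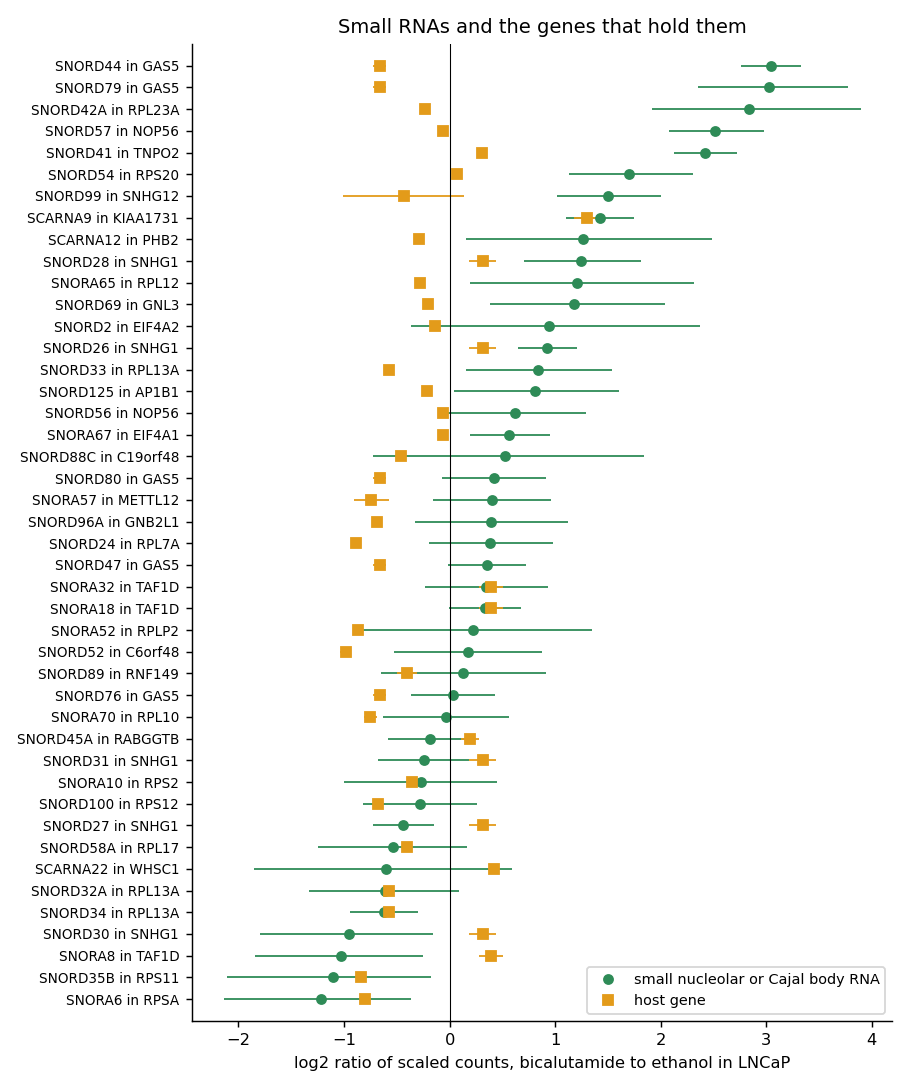
Log2 ratio of scaled counts, bicalutamide to ethanol in LNCaP, for 44 small RNAs (green circles) and the genes that hold them (orange squares), with lines over the 95% counting intervals. The circle lies to the right of the square in 31 of the 44 drawn, and the intervals of many small RNAs are wide.

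Markers of cell types were checked. Luminal prostate markers summed to 9315 CPM with ethanol and 7913 with bicalutamide, with 0 members at 0 in both. Basal markers summed to 296 and 291 CPM, and neuroendocrine markers to 143 and 145. Stromal markers summed to 127 and 99.8 CPM, endothelial markers to 8.64 and 7.99 and immune markers to 59.7 and 49.8, with 2, 2 and 6 members at 0 in both libraries. In a bulk library, fewer cells in a state, such as mitosis, and less RNA per cell cannot be told apart.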

How the data were processed

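The deposited table gave raw counts per gene symbol and RPKM values made by the authors for each of the 6 libraries, per the file headers. Sequencing was by SOLiD 3 Plus from total RNA, per the labels' protocols, and reads were placed on hg19, as the submitters' processing notes have it. The aligner, counting tool, annotation and use of strand were not given in the sources used here. Deposited counts were scaled by TMM (edgeR 4.0.16, R 4.3.3), genes averaging 20 or more counts across 6 libraries were kept, and CPM and log2(CPM + 1) were computed. The gene nearest the filter from inside was CCDC67 (mean of 20 counts, difference 0.07), and from outside SPOCD1 (19.8, -0.08). Ratios carry exact 95% intervals from the binomial distribution of the summed counts. The script was tested on simulated data.

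The 40 gene lists and the members were chosen with earlier results of these data known. Named genes were the 15 highest and 15 lowest, 5 snoRNAs each way, up to 6 members of each list whose median differed by 0.25 or more from that of all genes, a set of androgen, stress and proliferation genes, and lists of 5 or fewer past 2-fold. XRCC2, NCAPD3, BUB3, FKBP7, CALR, PDIA6, FICD, EIF2A, ZNF17, RPS27A, RPS21, CANX, HDAC3, RPSA and the SNORD and SCARNA entries beyond the highest 5 were chosen after their values were seen. Symbols are as the table spells them. RefSeq matched 13423 symbols and gave promoters for 10692. Hosts and snoRNA sequences came from GENCODE release 29. Alternatives numbered 11, and the ratio with no pseudocount was added after seeing the data. A planned count of proteins with an ER retrieval signal was not run, and some items are not reported here.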

Additional observations from a re-analysis of the deposited data

Results flagged for a closer look

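In 12 gene lists the median difference between bicalutamide and ethanol was at least 0.25 in size in LNCaP and had the opposite sign in BicR. Whether the lines differed was not tested, and most of the BicR medians were close to 0. On the higher side in LNCaP were mitosis (1.39, and -0.16 in BicR), homologous recombination and the Fanconi pathway (0.61 and -0.11) and DNA replication (0.34 and -0.12). On the lower side were ER chaperones (-0.98 and 0.01), ER-associated degradation (-0.39 and 0.01), N-glycan synthesis (-0.59 and 0.02), COPII and COPI transport (-0.37 and 0.04), unfolded protein response factors (-0.30 and 0.07), ATF4 amino acid response genes (-0.34 and 0.07) and p53 targets (-0.43 and 0.05). The marker lists of fibroblasts and smooth muscle (-0.26 and 0.02, 10 genes) and immune cells (-0.26 and 0.05, 4 genes) were flagged with them.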

How the results depend on the processing

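Genes at least 2-fold higher and lower, 150 and 211, were 227 and 125 with total counts, 303 and 337 with a pseudocount of 0.1 CPM, 45 and 130 with 5 CPM, and 68 and 114 with the authors' RPKM. By the ratio with no pseudocount, an alternative chosen after seeing the data, they were 370 and 391. The other 7 alternatives (DESeq2 and upper quartile scaling, 3 filters, and corrections for length and level) gave 121 to 160 higher and 172 to 222 lower. No list median of 0.25 or more in size, and no named gene past 2-fold, changed sign under the first 11 alternatives, but sizes moved: of the 40 list medians 29 moved by over 1.5 times, and by over 0.05, with total counts, 19 with RPKM and 17 with length correction. Mitosis fell from 1.39 to 0.88 with a pseudocount of 5 CPM and 0.86 with RPKM, and homologous recombination from 0.61 to 0.36 with 5 CPM. With total counts ER-associated degradation moved from -0.39 to -0.24, COPII and COPI transport from -0.37 to -0.21, unfolded protein response factors from -0.30 to -0.14, ATF4 genes from -0.34 to -0.18, oxidative phosphorylation from -0.30 to -0.15, glycolysis from -0.26 to -0.10 and p53 targets from -0.43 to -0.28. XBP1 changed sign from -0.02 to between 0.01 and 0.15 in 5 of the 11, and TMPRSS2 to 0.06 with total counts. The median of the small RNAs ran from 0.03 with no filter, over 261 RNAs, to 0.93 with a mean of 200 counts, over 6. With 1 library per treatment, variation between cultures is unknown. No paired analysis was possible because each group had 1 library. Low counts leave wide intervals for many small RNAs.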

Other observations

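Metallothioneins, small proteins that bind zinc and copper, were on no list and are given because their values stood out when the table was read. MT2A had 158 CPM in LNCaP with ethanol, 153 with DHT and 51.8 with bicalutamide, a ratio of 0.328 (0.314 to 0.343) for bicalutamide against ethanol. MT1G had 130, 80.9 and 48.1 CPM and MT1F 18.0, 15.2 and 6.90. In BicR the ratio of MT2A was 1.08. All 3 have short genes, at 591 to 657 bases on the relative length scale.

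SEMA3C, a secreted guidance protein, was another gene on no list. It had 77.6 CPM in LNCaP with ethanol, 132 with DHT and 208 with bicalutamide, and 180 and 168 in BicR with ethanol and bicalutamide. Its ratio of bicalutamide to ethanol in LNCaP was 2.68 (2.58 to 2.78). The short noncoding transcript BCYRN1 was lower, at 30.7, 19.7 and 9.79 CPM with ethanol, DHT and bicalutamide. RPPH1, the RNA of the enzyme that trims transfer RNA, was higher, with 25, 34 and 90 counts.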
